A study of Arabidopsis thaliana with 4 samples.

Results

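The thioredoxin h family was described in whole rosettes of Arabidopsis thaliana, through the 8 genes for thioredoxins h1, h2, h3, h4, h5, h7, h8 and h9. Members were found by locus, and all 8 were among the 27826 probe sets of the array table. The first group was 2 arrays that carry the label 35S:∆13RAP2.12, in the Columbia-0 ecotype, a name for RAP2.12 without its amino-terminal stretch, driven by the 35S promoter. That viral promoter is active in most plant tissues, but in which cells of these rosettes the shortened factor was expressed was not measured. The second group was 2 arrays of wild-type Columbia-0 (Col-0) rosettes. In both groups seeds had 2 days of cold at the start, and plants were 4 weeks old, grown in 12 h of light at 22 °C and nights at 18 °C, and sampled 10 h into the light period. The labels do not say how many transgenic lines were used, whether plants were pooled, or whether replicates came from separate plants, so every p-value measures only the spread between these arrays, which may be technical.

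Thioredoxins are small proteins that reduce disulfide bonds in other proteins through a pair of cysteines at their active site. In plants the h type works mainly outside the chloroplast and is reduced by NADPH-dependent thioredoxin reductases, of which NTRA and NTRB serve the cytosol and mitochondria, while chloroplast thioredoxins take electrons from ferredoxin. RAP2.12 is an ethylene response factor of group VII whose amino terminus marks it for breakdown when oxygen is present. The comparison asks how transcripts differ between rosettes labelled as carrying the shortened factor and wild-type rosettes.

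The family was chosen by the difference of the thioredoxin h8 gene TH8 in this same contrast, so the values of all 8 members are given as a description, without p-values. Levels are given in log2 units as computed by RMA, and the level of 1 gene cannot be set against that of another. The place of a gene among the quartiles of all values is therefore only a rough guide. Errors beside levels are SDs over 2 arrays, and errors beside differences are limma's moderated standard errors (SE). Since whole rosettes were measured, a change in the cells that express a gene and a change in its RNA per cell cannot be told apart.

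The arrays had median levels from 7.88 to 7.91. Across probe sets, which are no replicates, Pearson's r came to 0.993 for arrays of one group and to 0.978 to 0.980 for arrays of different groups. RAP2.12 itself was at 11.28 and 11.06 on the 35S:∆13RAP2.12-labelled arrays and at 11.07 and 11.16 on the Col-0 arrays, so that its level did not bear out the label. The stretch of transcript that its probes cover was not known here. PDC1, a pyruvate decarboxylase of ethanol fermentation that low oxygen is known to induce, was at 9.82 and 9.91 on the 35S:∆13RAP2.12-labelled arrays, against 4.60 and 4.87 on the Col-0 arrays (limma adjusted p = 0.00277). ADH1, the alcohol dehydrogenase of that pathway, was at 12.07 on both, against 9.26 and 8.41 (adjusted p = 0.0209). By their mean over the 4 arrays, 4 of 5 leaf markers lay above the upper quartile of all values (9.71). Of 5 flower markers, 4 lay below the lower quartile (4.80), as did 3 of 5 root markers. Over all 27826 probe sets, 4517 had an unadjusted p below 0.05 in limma's test, which is the background for such counts here and below. Of the 15 markers 0 passed limma's test, with 2 at an unadjusted p below 0.05. Those were AG, a flower gene, with a difference of -1.10 (adjusted p = 0.0690), and PYK10, a beta-glucosidase of root tissue, with 0.72 (adjusted p = 0.102). The other 4 root markers differed by -0.53 (PLT1), -0.26 (SHR), 0.09 (TIP2;3) and 0.14 (RHD6). The log2 of the summed root markers was 11.13 and 11.24 on the 35S:∆13RAP2.12-labelled arrays, against 10.62 and 10.44 on the Col-0 arrays, a sum in which PYK10 alone was at 11.05 and 11.17, against 10.51 and 10.28. The log2 of the summed flower markers was 6.82 and 6.62, against 7.14 and 7.48 on the Col-0 arrays. In that sum AG alone was at 5.22 and 5.45, against 6.27 and 6.60. The other 4 flower markers differed by -0.43 (PI), -0.26 (AP3), -0.23 (SEP3) and 0.14 (AP1). The log2 of the summed leaf markers was 14.42 and 14.43, against 14.51 and 14.49. The part of these markers in the values below was not tested.

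Within the family, TH8 had by far the largest difference, thioredoxin h5 came next at 1.93-fold, and the other 6 members differed by 0.31 or less on the log2 scale. Differences were positive in 5 members and negative in 3. The median difference of the 8 members was 0.13, beside -0.04 over all probe sets, and the median size of the difference was 0.27, beside 0.17. The groups did not overlap in 5 of 8 members, where 48.6% of all probe sets had groups that did not overlap. Limma called 1 of the 8, TH8, at a p below 0.05 after Benjamini-Hochberg adjustment across the whole array, where 2.17% of all probe sets were called. Nothing is read from these shares, since the contrast chose the family.

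**Figure D1:**
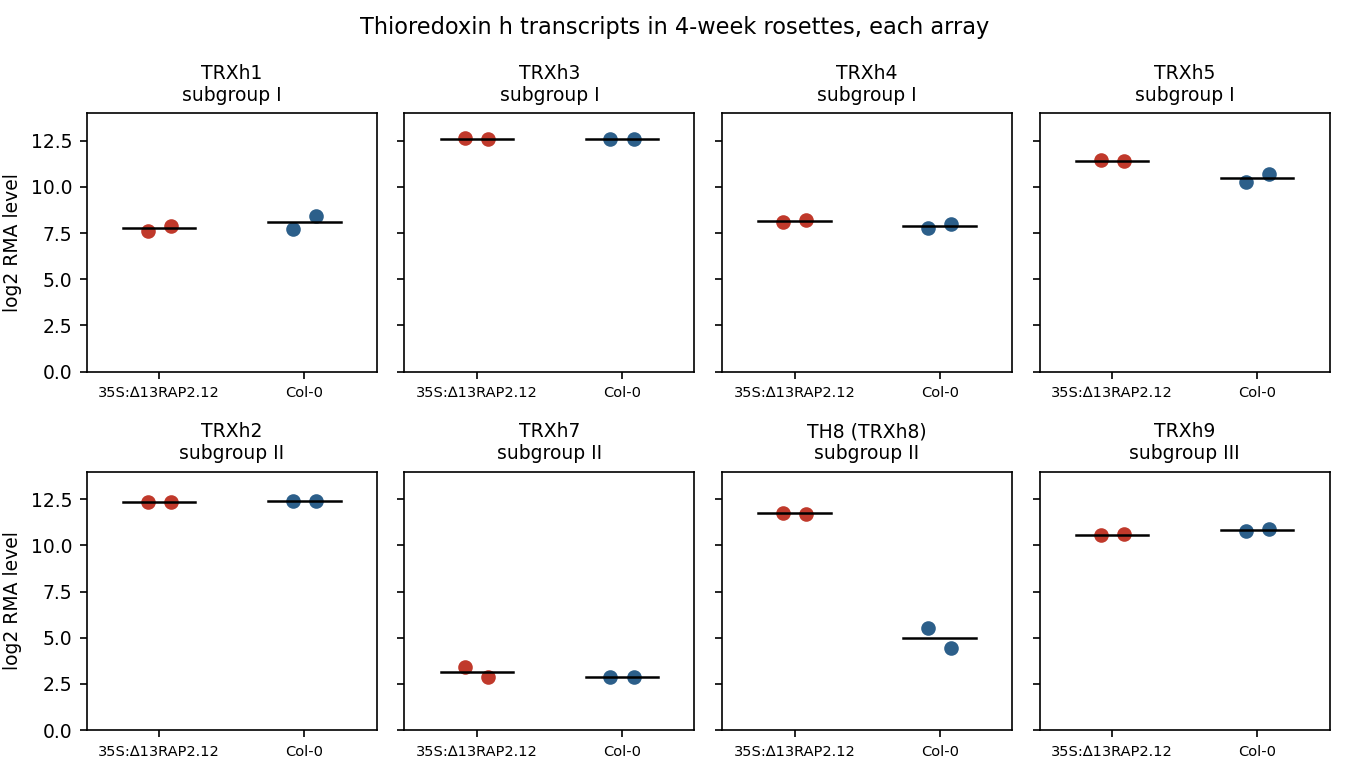
The log2 RMA level of each thioredoxin h gene on the 2 arrays that carry the label 35S:∆13RAP2.12 (red) and the 2 Col-0 arrays (blue); points are arrays and black bars group means. TH8 lies between 11.72 and 11.76 on the red arrays and between 4.42 and 5.53 on the Col-0 arrays, while the other panels show near-level bars apart from TRXh5.

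TH8 (AT1G69880, thioredoxin h8) belongs with h2 and h7 to subgroup II of the family. Its log2 level was 11.76 and 11.72 on the 35S:∆13RAP2.12-labelled arrays, 11.74 ± 0.03 (SD, n = 2), against 5.53 and 4.42 on the Col-0 arrays, 4.97 ± 0.78 (SD, n = 2). Both 35S:∆13RAP2.12-labelled arrays were high and nearly equal, both Col-0 arrays were low, and the groups lay 6.19 apart at their closest. The log2 difference was 6.76 (SE 0.38), which is 109-fold and ranked 8 among all probe sets. The spread of TH8 in Col-0 was the widest of any member in either group, and the fold depended on the Col-0 array used: the difference was 7.32 (159-fold) without Col-0 replicate 1 and 6.21 (74.1-fold) without Col-0 replicate 2. One of the Col-0 values is under the lower quartile of 4.80 and the other over it. Signal over background is unknown for these values, so the Col-0 level may be a bound and the exact fold is not determined.

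Thioredoxin h2 (TRX2, AT5G39950) is, like TH8, a member of subgroup II and has been placed in mitochondria as well as other compartments. Its log2 level was 12.369 and 12.365 on the 35S:∆13RAP2.12-labelled arrays, against 12.406 and 12.384 on the Col-0 arrays. The 4 values of TRX2 were nearly equal, and although the groups did not overlap, they lay only 0.015 apart. The difference was -0.03 (SE 0.11), and 90.7% of all probe sets had a larger one in size. Its sign turned when the arrays were quantile-normalized again, to 0.021, so no direction can be given for this gene.

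Thioredoxin h7 (TH7, AT1G59730) completes subgroup II. Its log2 level was 3.42 and 2.90 on the 35S:∆13RAP2.12-labelled arrays, against 2.90 and 2.89 on the Col-0 arrays. One 35S:∆13RAP2.12-labelled array stood above the other 3, which were level, and the groups overlapped. The difference of 0.26 (SE 0.21) became -0.0026 without that array, replicate 1. TH7 was the only member below the lower quartile of all values in both groups, and whether its signal was above background is unknown.

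In subgroup I, thioredoxin h5 (TRX5, AT1G45145) had the second largest difference of the family. This protein is known to reduce the salicylic acid coactivator NPR1, and its gene is also LIV1, needed for sensitivity to the fungal toxin victorin. TRX5 was at 11.46 and 11.39 on the 35S:∆13RAP2.12-labelled arrays, 11.42 ± 0.04 (SD, n = 2), against 10.28 and 10.67 on the Col-0 arrays, 10.48 ± 0.28 (SD, n = 2). Both 35S:∆13RAP2.12-labelled arrays were above both Col-0 arrays, by 0.72 at the closest and 1.18 at the widest. The difference of TRX5 was 0.95 (SE 0.17), which is 1.93-fold, and 4.36% of all probe sets had a larger one in size. It was 1.15 without Col-0 replicate 2 and 0.75 without Col-0 replicate 1, the lower of the Col-0 arrays for this gene.

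Thioredoxin h3 (TRX3, AT5G42980), also known to reduce NPR1 and to act as a chaperone, differed least in the family. It was at 12.63 and 12.60 on the 35S:∆13RAP2.12-labelled arrays, against 12.60 and 12.62 on the Col-0 arrays. The groups of TRX3 overlapped, and the difference was 0.01 (SE 0.11). Of all probe sets, 97.7% had a larger one in size. Centring each array on its median turned its sign, to -0.019.

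Thioredoxin h4 (ATTRX4, AT1G19730) was at 8.12 and 8.20 on the 35S:∆13RAP2.12-labelled arrays, against 7.76 and 7.98 on the Col-0 arrays. The groups of ATTRX4 did not overlap and lay 0.14 apart, with a difference of 0.29 (SE 0.14), or 1.22-fold. Differences of this size or larger were common, and 30.3% of all probe sets exceeded it. Thioredoxin h1 (TRX1, AT3G51030), a cytosolic form, was at 7.62 and 7.90 on the 35S:∆13RAP2.12-labelled arrays, against 7.74 and 8.41 on the Col-0 arrays. Col-0 replicate 2 stood above the other 3 arrays, and the groups overlapped. The difference of TRX1 was -0.31 (SE 0.26), and 0.016 without that array.

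Thioredoxin h9 (TH9, AT3G08710) stands in subgroup III and is known as a plasma-membrane form that can move between cells. Its log2 level was 10.57 and 10.60 on the 35S:∆13RAP2.12-labelled arrays, 10.59 ± 0.03 (SD, n = 2), against 10.79 and 10.87 on the Col-0 arrays, 10.83 ± 0.06 (SD, n = 2). Both 35S:∆13RAP2.12-labelled arrays were below both Col-0 arrays, with 0.18 between the groups. The difference of TH9 was -0.24 (SE 0.11), and 36.7% of all probe sets had a larger one in size.

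**Figure D2:**
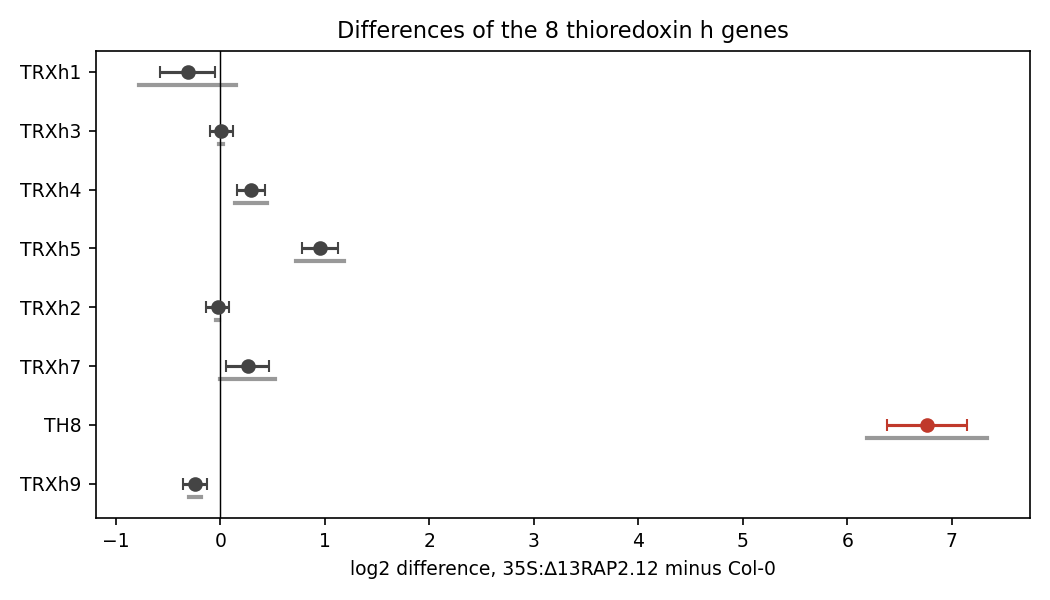
The log2 difference of each thioredoxin h gene, 35S:∆13RAP2.12-labelled arrays minus Col-0 (points, with bars of 1 moderated SE); grey lines run from the smallest to the largest difference between single arrays of the groups. TH8 stands at 6.76 and TRXh5 at 0.95, and the other 6 genes lie between -0.31 and 0.29.

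The 2 Col-0 arrays did not order the members alike. TH8 was lower on Col-0 replicate 2 than on replicate 1, at 4.42 against 5.53, whereas TRX5 was higher on it, at 10.67 against 10.28. The 35S:∆13RAP2.12-labelled arrays were much closer to each other in both genes. Within-group SDs over the 8 members ran from 0.0030 to 0.78 with a median of 0.050, beside a median of 0.11 over all probe sets.

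The nearest genes with a probe set on either side of each member were looked up in the gene order of the TAIR10.1 assembly. A gene without one lay between in 2 of the 16 cases, BGAL5 beside TRX5 and AT5G39960 beside TRX2. Of the 16 neighbours 0 passed limma's test, with 1 at an unadjusted p below 0.05. That gene was AT1G59725 beside TH7, with a difference of 0.57 (adjusted p = 0.242), and the other 15 differed by -0.17 to 0.55. Beside TH8, NRT1.7, a nitrate transporter, was at 11.30 and 11.10 on the 35S:∆13RAP2.12-labelled arrays, against 11.29 and 11.28 on the Col-0 arrays (difference -0.09, adjusted p = 0.800). On the other side of TH8, AT1G69890 was at 7.83 and 7.88 on the 35S:∆13RAP2.12-labelled arrays, against 7.83 and 7.71 on the Col-0 arrays (difference 0.08, adjusted p = 0.797). The neighbours of TRX5 had differences of 0.01 for BGAL5, a beta-galactosidase, and 0.08 for AT1G45150. No neighbour of TH8 or TRX5 differed by more than 0.09 in size.

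Likeness to TH8 was measured as the Euclidean distance over the 4 arrays after each gene was centred on its own mean. The nearest gene was AT1G67105, a noncoding RNA, at a distance of 0.58, with levels of 11.16 and 11.59 on the 35S:∆13RAP2.12-labelled arrays, against 5.21 and 4.63 on the Col-0 arrays. AT1G67105 was lower on Col-0 replicate 2 than on replicate 1, as TH8 was. Between the 35S:∆13RAP2.12-labelled arrays its order was the reverse of that of TH8. Next came LCR67, of the plant defensins, at 0.76, AT2G17850 at 0.79, SRO4, of the RCD1 family, at 0.79 and AT5G10040 at 1.03. LCR67, AT2G17850 and SRO4 were also lower on Col-0 replicate 2, SRO4 only slightly, while AT5G10040 was higher. Within the family, the nearest member to TH8 was TRX5, at a distance of 5.91, and the farthest was TRX1, at 7.19. This ranking over 4 arrays describes size and direction only, and the difference used to choose the family is part of it.

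**Figure D3:**
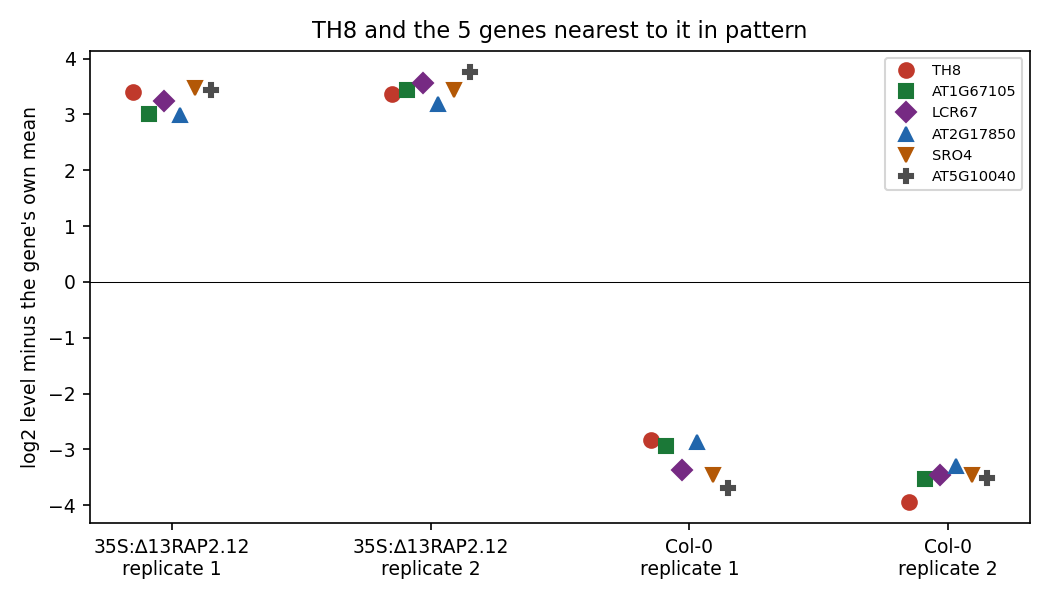
The log2 level minus the gene's own mean over the 4 arrays, for TH8 and the 5 genes outside the family at the smallest Euclidean distance from it; each symbol is 1 gene on 1 array. All 6 genes lie far above 0 on the 35S:∆13RAP2.12-labelled arrays and far below 0 on the Col-0 arrays, and TH8 has the lowest value on Col-0 replicate 2.

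Around the family, 7 lists covered other thioredoxins, thioredoxin reduction and targets, the parallel glutaredoxin and glutathione system, and NPR1 with salicylate regulators and PR1. Their 102 genes are called thioredoxin-linked for short, a name that here includes the glutaredoxins. Of these, 4 were higher in the 35S:∆13RAP2.12-labelled arrays and 0 lower at an adjusted p below 0.05, which is 3.92%. Over all probe sets, 1.74% were called higher and 0.424% lower. An unadjusted p below 0.05 in limma's test was found for 16 of the 102 genes, where 4517 of all 27826 probe sets had one. The median difference of the 102 genes was -0.03, beside -0.04 over all probe sets. The 4 that rose were the glutaredoxins GRX480 and GRXS13, the thioredoxin ACHT5 and the peroxiredoxin TPX2.

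Of the 6 reductases that feed thioredoxins 0 passed limma's test, and 0 had an unadjusted p below 0.05, with differences from -0.16 to 0.09. NTRA, named for its part in reducing the h type, was at 10.04 and 9.99 on the 35S:∆13RAP2.12-labelled arrays, against 10.13 and 9.72 on the Col-0 arrays (difference 0.09, limma adjusted p = 0.859). NTRB, its close relative, was at 9.21 and 9.31 on the 35S:∆13RAP2.12-labelled arrays, against 9.40 and 9.28 on the Col-0 arrays (difference -0.07, adjusted p = 0.820). The smallest p was that of FTRA2, a subunit of the chloroplast ferredoxin-thioredoxin reductase, with a difference of -0.16 (95% interval -0.45 to 0.14, adjusted p = 0.577).

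In the list of h-related and atypical forms, which holds the CXXS proteins and the nucleoredoxins, 0 of 7 passed limma's test, and 0 had an unadjusted p below 0.05. Their differences ran from -0.23 to 0.22, and AT5G42850 had the smallest p, with a difference of -0.18 (limma adjusted p = 0.540).

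Among 21 chloroplast and mitochondrial thioredoxins, 1 was higher and 0 lower. A positive difference was found in 5 of 21, with a list median of -0.12, beside -0.04 over all probe sets. ACHT5, an atypical chloroplast thioredoxin, was at 10.57 and 10.43 on the 35S:∆13RAP2.12-labelled arrays, against 9.01 and 9.21 on the Col-0 arrays. The groups of ACHT5 lay well apart, and its difference of 1.39 (SE 0.14) passed limma's test (adjusted p = 0.0225), or 2.62-fold. The other 20 did not pass.

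Of 18 genes on the list of thioredoxin-linked peroxidases, 1 was higher and 0 lower. TPX2, a type II peroxiredoxin, was at 5.64 and 5.32 on the 35S:∆13RAP2.12-labelled arrays, against 4.31 and 4.34 on the Col-0 arrays (difference 1.16, SE 0.15, limma adjusted p = 0.0479). Its Col-0 level was below the lower quartile of all values, so the size of this rise is uncertain. How far its probes separate TPX2 from related peroxiredoxin genes was not tested.

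Methionine sulfoxide reductases repair oxidized methionine and draw on thioredoxin. Of 14 genes 0 passed limma's test, while 4 had an unadjusted p below 0.05, as did 4517 of all 27826 probe sets. MSRB9 had the smallest p, at 10.12 and 9.52 on the 35S:∆13RAP2.12-labelled arrays, against 8.22 and 8.51 on the Col-0 arrays (difference 1.45, SE 0.25, adjusted p = 0.0797). MSRB7 and MSRB8, which neighbour it in the genome and are named after their values were seen, differed by 3.46 (adjusted p = 0.160) and 2.94 (adjusted p = 0.175). MSRB6, the other gene at an unadjusted p below 0.05, had a negative difference of -0.47 (adjusted p = 0.157), at 11.09 and 11.16 on the 35S:∆13RAP2.12-labelled arrays, against 11.64 and 11.57 on the Col-0 arrays. MSRB7 was at 10.35 and 10.18 on the 35S:∆13RAP2.12-labelled arrays, against 5.55 and 8.06 on the Col-0 arrays, and MSRB8 at 9.13 and 8.06, against 4.66 and 6.64. In MSRB7 and MSRB8 the groups did not overlap, but the Col-0 arrays lay farther from each other than Col-0 replicate 2 lay from the nearest array of the other group. How far probes separate these related copies was not tested.

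The glutaredoxins, which work with glutathione in place of thioredoxin reductase, held the other calls. Of 26 genes for glutaredoxins and glutathione, 2 were higher and 0 lower. GRX480, a glutaredoxin known to bind TGA factors, was at 7.72 and 7.32 on the 35S:∆13RAP2.12-labelled arrays, against 5.47 and 5.12 on the Col-0 arrays (difference 2.22, SE 0.21, limma adjusted p = 0.0206), or 4.67-fold. GRXS13, of the same plant-specific class, was at 8.36 and 7.64, against 5.84 and 6.07 on the Col-0 arrays (difference 2.05, SE 0.27, adjusted p = 0.0483), or 4.13-fold.

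NPR1 and its partners include known targets of thioredoxins h3 and h5, and 0 of the 10 genes on this list passed limma's test, with 1 at an unadjusted p below 0.05. That gene was PR1, a marker of salicylic acid defence, at 10.16 and 9.75 on the 35S:∆13RAP2.12-labelled arrays, against 3.22 and 7.00 on the Col-0 arrays (difference 4.85, SE 1.27, limma adjusted p = 0.181). PR1, MSRB7 and MSRB8 were each higher on Col-0 replicate 2 than on replicate 1. Within the family this also held for TRX1, TRX3, ATTRX4, TRX5 and TH9, and not for TH8, TRX2 and TH7, so it was not particular to TRX5. NPR1 itself was at 10.13 and 10.20, against 10.04 and 10.03 on the Col-0 arrays (difference 0.13, adjusted p = 0.636).

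The calls in these lists rested on few arrays. Without Col-0 replicate 1, without Col-0 replicate 2 or without 35S:∆13RAP2.12-labelled replicate 1, 0 of the 102 genes passed, and 2 passed without 35S:∆13RAP2.12-labelled replicate 2, GRX480 and GRXS13. With the replicate number as a block 2 passed, GRX480 (adjusted p = 0.0107) and ACHT5 (adjusted p = 0.0443), while GRXS13 (adjusted p = 0.0600) and TPX2 (adjusted p = 0.0652) did not. The same pair missed the threshold with robust eBayes and with array weights, and TPX2 also after renewed quantile normalization (adjusted p = 0.0616). The differences of the 4 genes stayed positive in each of these fits.

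**Figure D4:**
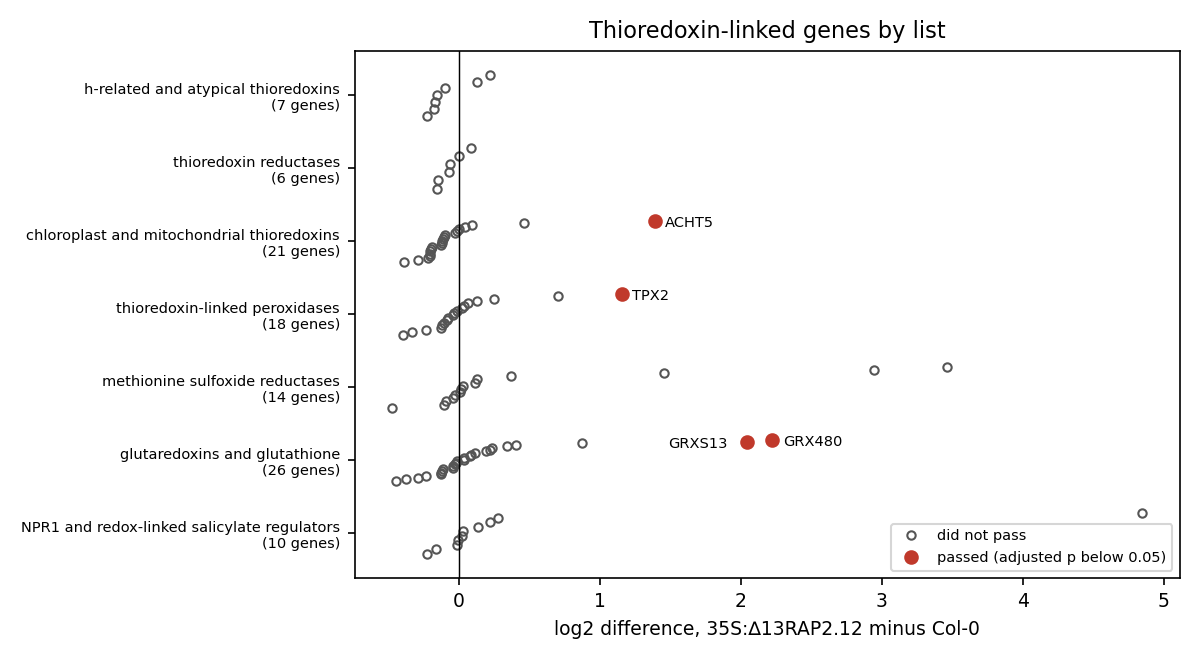
The log2 difference, 35S:∆13RAP2.12-labelled arrays minus Col-0, of each of the 102 thioredoxin-linked genes in 7 lists (1 point per gene, spread vertically in order of size); filled red points passed limma's test at an adjusted p below 0.05. The 4 that passed, GRX480, GRXS13, ACHT5 and TPX2, lie between 1.16 and 2.22, and the larger differences of MSRB7, MSRB8 and PR1 did not pass.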

How the data were processed

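Total RNA of whole rosettes was labelled with biotin and hybridized to Affymetrix Arabidopsis arrays, per the labels' protocols. The authors deposited RMA values, as the submitters' processing notes name them, and their range shows a log2 scale. RMA removes background, brings all arrays to a common distribution and combines probes into 1 value per probe set. No version of RMA and no probe set definition was given in the sources used here. The series' design text speaks of more arrays than the 4 used, and the others were not analysed here.

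No further normalization or filter was applied. Groups were taken from sample titles. Differences were fitted over all 27826 probe sets without covariates by lmFit and eBayes of limma 3.58.1 (R 4.3.3), with Benjamini-Hochberg adjustment, and called at an adjusted p below 0.05. The script was tested on simulated data with 200 changed genes. It called 4.2% of planted log2 changes of 1, 78% of those of 2 and 97.6% of those of 4. The simulated spread did not depend on a gene's level, so these rates may not hold for the real arrays. A gene that did not pass limma's test may still differ, and not only by a log2 change of 1 or less. PR1, MSRB7 and MSRB8, with differences of 4.85, 3.46 and 2.94, did not pass. Symbols and gene order came from the RefSeq gene table of TAIR10.1, which held 27241 of the loci. Coordinates served only to put the genes in order, and promoters were not used here. The members and the lists were chosen with earlier results of these data known. Named genes were the members, their neighbours, the 5 genes nearest to TH8, RAP2.12, PDC1 and ADH1, and, of each list, up to 4 called genes with the largest differences, or else the gene with the smallest p. Outside that rule, NTRA, NTRB, MSRB6, MSRB7, MSRB8, NPR1 and single root and flower markers were also named. The alternatives tried were a replicate block, median centring, renewed quantile normalization, a low-value filter (25th percentile of the mean), a variance trend, robust eBayes, array weights, leaving out single arrays, and thresholds of 0.01 and 0.10. Same-numbered arrays deviated from their group means with a correlation of 0.035 over probe sets. Figures used matplotlib 3.10.9.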

Additional observations from a re-analysis of the deposited data

How the results depend on the processing

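Only a new normalization or the loss of an array could move the member differences; the other settings leave them as they are by construction. Of the 16 renormalized differences, 12 moved by less than 1 SD between replicates, and the 4 that moved further were those of TRX2 and TRX3 under renewed quantile normalization (0.021 and 0.069) and median centring (-0.054 and -0.019). A sign changed in 2 of these and in 3 fits that left out an array, all in TRX1, TRX2, TRX3 or TH7. The difference of TH8 stayed between 6.21 and 7.32. The number of probe sets called was 603; it was 1759 with an intensity trend, 160 at a threshold of 0.01, 1203 at 0.10, and between 0 and 315 with each array left out. The number of thioredoxin-linked genes called was 4; it was 13 with an intensity trend (9 higher and 4 lower), 2 with robust eBayes, 2 with array weights, 2 with the replicate number as a block, 0 at a threshold of 0.01, and between 0 and 2 with each array left out. A fit that leaves out an array assumes that the lone array varies like the other group. The labels do not say what a replicate number marks. The 4 arrays, and the unknown signal over background of TH8 and TH7 in Col-0, limit the precision.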
